A study of Mus musculus with 8 samples.

Results

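The naive pluripotency factors described here are 10 genes: Nanog, Esrrb, Tbx3, Tfcp2l1, Nr0b1, Nr5a2, Zfp42, Prdm14, Tcl1 and Gbx2. They were taken by name, not by how they behaved, through the RefSeq accession that each array probe carries. They are 10 of the 20972 genes that could be named on the array and had 13 probes on 22 spots, of 55681 probes on 59305 spots that were no controls. Most encode DNA-binding transcription factors. Nr0b1 encodes a nuclear receptor that lacks the usual DNA-binding domain and acts mainly as a corepressor, and Tcl1 a coactivator of the kinase AKT that does not itself bind DNA.

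RNA from mouse embryonic stem (ES) cells was measured on 8 single-colour Agilent arrays, in 4 groups of 2 replicates. Every culture, the controls included, grew in ES cell medium with LIF, the cytokine that activates STAT3, and with 250 nM PD173074, an FGF receptor inhibitor. Controls were untreated otherwise. The other groups received 250 nM 4OHT (4-hydroxytamoxifen) for 8 h, the same for 10 h, or the same for 8 h followed by 1 µM PD0325901, a MEK inhibitor, for 2 h; the last group is called MEK-inhibited here. 4OHT is used to activate proteins fused to a mutant hormone-binding domain of the oestrogen receptor. The labels name neither such a fusion nor the ES cell line, and they leave unsaid whether 4OHT remained during MEK inhibition. The title of the series refers to an Erk-dependent transcriptome, and ERK is the kinase that MEK phosphorylates. The comparisons therefore ask which factors changed with 4OHT and which levels moved during 2 h of MEK inhibition. No group received PD0325901 without 4OHT. A reversal of a 4OHT change thus cannot be told apart from an effect that the inhibitor has without 4OHT.

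Naive pluripotency is the state of the preimplantation epiblast, which mouse ES cells keep in culture. Its factors bind one another's enhancers together with OCT4 and SOX2, and are fed by LIF through STAT3 and by relief of repression by TCF7L1. FGF signalling through MEK and ERK moves cells out of this state, which is why MEK inhibitors are used to hold it. NANOG, ESRRB, TFCP2L1 and TBX3 support self-renewal when expressed in excess, PRDM14 represses FGF signalling and DNA methyltransferase genes, and NR5A2 and NR0B1 are nuclear receptors linked to Oct4 regulation. ZFP42 (REX1) is the usual reporter of the naive state, and GBX2 is a homeobox factor known as a STAT3 target in ES cells.

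Values are log2 signals relative to the 75th percentile of their array, so 0 means a signal at that percentile. A change is the difference of 2 group means on that scale and is printed ± its standard error, which limma estimated. A gene is called, and is said to have risen or fallen, where its two-sided limma p adjusted by Benjamini-Hochberg over all genes tested was under 0.05. The replicate number was not fitted, except where a replicate block is named. Each group had 2 arrays, which limits the precision, and the p-values reflect only how far these samples spread, a spread that may be technical. All 10 factors were well above background on all 8 arrays, so all of them passed the filter on dim probes, and no spot was saturated. The highest signals were those of Esrrb (50780) and Zfp42 (50580), against a saturation value of 777963.

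All 8 ES cell markers, among them Pou5f1, Sox2, Utf1 and Sall4, were well above background on every array. Nanog and Zfp42 are in this marker list as well as among the 10 factors. Between 30218 and 37789 spots per array were well above background, with at least 36889 on each array of replicate 1 and at most 31433 on each of replicate 2, and replicates correlated across genes at r = 0.992 to 0.9934. The ERK phosphatase gene Dusp6 rose by 2.84 at 8 h and 2.95 at 10 h of 4OHT and fell by 5.85 with MEK inhibition. The immediate early gene Egr1 rose by 3.83 and 4.24 and fell by 5.39 (inhibition against 10 h in both genes). In MEK-inhibited against untreated cells Dusp6 was lower, at -2.9 ± 0.09 (adjusted p = 0.000261). Egr1 differed by -1.16 ± 0.29 and was not called (0.0513). The median level of 14 primitive endoderm markers was 1.38 to 1.86 higher on the replicate 1 array than on the replicate 2 array of each group. Markers of other cell types are given as the sum over each list of signals divided by the array's 75th percentile. The brightest genes of a list weigh most in such a sum. Among the primitive endoderm markers this is Sparc (7.82 on the log2 scale in untreated cells), among the trophoblast markers Krt18 (5.42 at 10 h). A change in a sum is thus not a change of every marker. The sum over 10 trophoblast markers was 18.8 to 22.4 in untreated cells, 37.3 to 43.9 at 8 h, 51.7 to 65.7 at 10 h and 52.8 to 53.8 with MEK inhibition. The sum over 11 fibroblast markers was 43.8 to 44.4, 85.6 to 105, 86.6 to 105 and 70 to 84.7 in the same order, with Prrx1 and Lum not above background on any array. Of the 6 fibroblast markers bright enough to test at 10 h, Thy1, Twist1 and Vim were called higher and Col1a1 and Pdgfrb lower. These calls were 83.3% of those tested, where 27.9% of all genes were called. The median level of the list was -3.61 and -3.07 on the untreated arrays and -3.64 and -5.04 at 10 h, so the members did not move one way. Of the trophoblast markers, Hand1 was not above background in untreated cells. At 10 h 7 of 9 trophoblast markers were called (77.8%, where 27.9% of all genes were), 5 of them upward and 2 downward. The sum over 14 primitive endoderm markers was 279 to 330, 325 to 398, 348 to 410 and 325 to 439, with 11 to 14 of them detected. Of these 14 markers 1 was called at 10 h (7.14%, where 27.9% of all genes were). Of 7 markers of 2-cell-like cells 6 had a probe, all but Zscan4d. Their sum was 11.2 to 12.6 in untreated cells, 6.72 to 8.43 at 8 h, 8.72 to 8.85 at 10 h and 11.9 to 12.6 with MEK inhibition. Tcstv3 was never above background. Zfp352, the brightest of them (3.5 in untreated cells), weighs most in that sum. It fell by 0.69 ± 0.12 at 8 h (adjusted p = 0.013) and by 0.45 ± 0.12 at 10 h (0.0401). At 10 h it was the 1 called of 3 tested (33.3%, where 27.9% of all genes were). The part of these cells in the results that follow was not tested, and in bulk RNA fewer cells of a type and less RNA per cell cannot be told apart.

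RefSeq promoter windows, from 250 bases before to 50 after the start of a transcript on build GRCm38.p6, were matched by symbol to 8 of the 10 factors and gave 11 windows. Tbx3 and Prdm14 had no entry. The windows of Nanog, Zfp42 and Gbx2 are shown because these genes respectively fell, were not called and rose with 4OHT. Each is written 5′ to 3′ in the direction of its gene, in lower case with the motif matches in capitals.
Nanog, chr6:122707315-122707614, plus strand: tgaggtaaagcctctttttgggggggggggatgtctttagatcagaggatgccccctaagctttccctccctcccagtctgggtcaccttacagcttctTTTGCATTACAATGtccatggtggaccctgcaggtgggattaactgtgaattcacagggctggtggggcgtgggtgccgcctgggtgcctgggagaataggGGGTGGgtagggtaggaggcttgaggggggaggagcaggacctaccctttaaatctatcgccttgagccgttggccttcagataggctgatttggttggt
Zfp42, chr8:43306960-43307259, minus strand: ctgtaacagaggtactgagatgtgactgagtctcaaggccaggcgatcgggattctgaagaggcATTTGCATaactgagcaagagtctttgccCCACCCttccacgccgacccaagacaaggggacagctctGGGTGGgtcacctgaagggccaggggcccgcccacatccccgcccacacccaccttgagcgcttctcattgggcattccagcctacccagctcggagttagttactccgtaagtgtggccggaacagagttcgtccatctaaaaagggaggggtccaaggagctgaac
Gbx2, chr1:89931127-89931426, minus strand: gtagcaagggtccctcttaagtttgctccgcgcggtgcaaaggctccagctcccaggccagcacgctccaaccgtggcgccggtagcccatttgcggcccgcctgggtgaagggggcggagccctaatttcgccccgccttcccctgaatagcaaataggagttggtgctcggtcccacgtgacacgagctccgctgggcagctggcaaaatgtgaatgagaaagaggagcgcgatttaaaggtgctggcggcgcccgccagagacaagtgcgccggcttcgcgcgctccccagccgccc
The capitals in Nanog mark an OCT4 and a SOX2 element side by side, TTTGCAT and ACAATG with 1 base between them, starting 151 bases before the transcript start. Among 32851 promoter windows these exact letters were found in 2 (0.00609%), which are the overlapping windows of Nanog and share 1 site. The search allowed no other letters outside the 1 base between the elements. That share therefore does not tell how rare OCT4 and SOX2 pairs are in general. The first capitals in Zfp42 mark the octamer ATGCAAAT, bound by OCT4, on the opposite strand 186 bases before the start (1.74% of promoters). The other capitals in both genes mark the KLF-type motif CCACCC or its reverse complement, which 31.5% of promoters and 8 of the 11 windows held (Esrrb, Nanog, Nr0b1, Nr5a2, Tcl1 and Zfp42). The STAT-type motif TTCNNNGAA (8.3% of promoters) was in a window of Esrrb. The ESRRB-type motif TCAAGGTCA (0.423%), the ETS-type CCGGAAG (8.86%) and the TCF-type CTTTGAA (5.14%) were in none of the 11 windows, and Gbx2 held none of the 7 motifs. Both strands were searched, and the OCT4 and SOX2 pair can overlap an octamer. A match or its absence describes the letters of these windows only.

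Setting 4OHT 8h against the controls asked which factors had changed by then. The set split. Nanog, Prdm14, Tbx3, Tfcp2l1 and Tcl1 fell, Gbx2, Nr0b1 and Nr5a2 rose, and Esrrb and Zfp42 were not called. Thus 8 of 10 factors were called, where 21.7% of all genes tested were. All genes, here and in what follows, include those without a symbol. In a fit of only the genes well above background on all 8 arrays, as the factors were, 4888 of 19646 were called. At 10 h this was 6187 of 19646, and with MEK inhibition against 10 h 1481 of 19647. The median change of the 10 was -0.81, and that of all genes was -0.04. The arrays of the 2 groups did not overlap for any of the 10 factors, which also held for 63.7% of all genes.

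Nanog, the homeodomain factor of the naive network, stood at 4.78 and 4.83 on the untreated arrays of replicates 1 and 2 and at 2.31 and 2.12 after 8 h. Both treated arrays lay far under both controls. The fall was 2.59 ± 0.19 on the log2 scale, or 6.04-fold lower (adjusted p = 0.000886). Prdm14, a PR-domain zinc finger repressor, was at 3.15 and 2.99 in untreated cells and at 0.49 and -0.02 at 8 h. It fell from well over the array's upper quartile to about that quartile, by 2.84 ± 0.29 or 7.15-fold (adjusted p = 0.00257). Tbx3, a T-box factor, went from 5.30 and 5.16 to 3.88 and 3.47. Its treated arrays were lower by 1.42 in replicate 1 and 1.69 in replicate 2, a fall of 1.55 ± 0.24 (adjusted p = 0.00949).

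Tfcp2l1, a CP2-family factor that acts with STAT3, was at 5.65 and 5.26 in untreated cells and at 4.24 and 3.68 at 8 h. Replicate 1 was the higher array in each group, and the fall of 1.50 ± 0.37 was 2.82-fold (adjusted p = 0.0385). Tcl1, the AKT coactivator, was at 5.03 on both untreated arrays and at 4.16 and 3.83 at 8 h. This fall of 1.04 ± 0.24 was 2.06-fold (adjusted p = 0.0317). Esrrb, an orphan nuclear receptor that NANOG activates, was at 7.01 on both untreated arrays and at 6.55 and 6.30 at 8 h. Its treated arrays were both lower, but the change of -0.58 ± 0.23 was not called (adjusted p = 0.128), unless the replicate number was fitted as a block (adjusted p = 0.0417). Zfp42 was at 7.01 and 7.17, then at 6.85 and 6.80. Its change of -0.26 ± 0.14 (95% interval -0.61 to 0.08, adjusted p = 0.242) was not called.

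Gbx2 was at 1.54 and 1.42 in untreated cells and at 4.32 and 4.02 at 8 h. Both treated arrays were far higher, and the rise of 2.68 ± 0.16 was 6.43-fold (adjusted p = 0.000576). Nr0b1 (DAX1), the corepressor among the nuclear receptors, was at 4.95 and 5.28, then at 5.71 and 5.93. It rose by 0.70 ± 0.14 or 1.63-fold (adjusted p = 0.02), and here replicate 2 was the higher array of each group. Nr5a2 (LRH-1), an orphan nuclear receptor that binds the Oct4 promoter, was at 4.31 and 4.47, then at 4.94 and 4.90. It rose by 0.53 ± 0.14 or 1.44-fold (adjusted p = 0.0462), with both treated arrays above both controls.

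**Figure D1:**
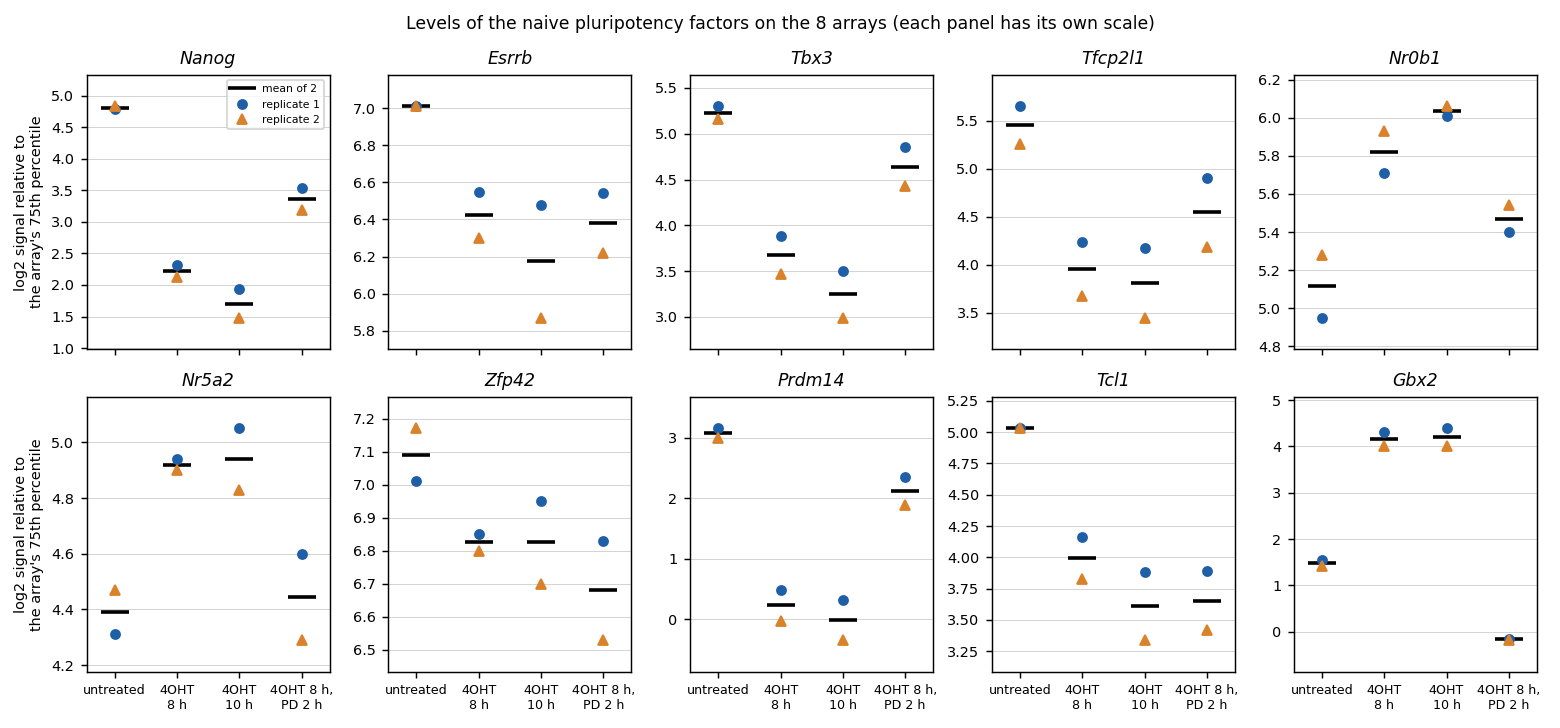
Log2 signal relative to the array's 75th percentile (y axis, each panel on its own scale) of the 10 factors in the 4 groups (x axis). Points are the single arrays of replicates 1 and 2 and lines are group means. Nanog, Tbx3 and Prdm14 drop with 4OHT and stand higher after PD0325901, Gbx2 does the opposite and ends lower than in untreated cells, and Tcl1 stays low (3.61 at 10 h and 3.65 with inhibition).

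The calls of Nanog, Prdm14 and Gbx2 at 8 h held in all 18 alternative analyses, whereas those of the other 5 factors were lost in some. Tbx3 was lost without untreated replicate 1 (adjusted p = 0.054) or 4OHT 8h replicate 2 (0.0512), and Nr0b1 without the same arrays (0.0678 and 0.103). Tcl1 and Tfcp2l1 were lost without any 1 of the 4 arrays compared, at adjusted p of 0.117 and 0.157 when untreated replicate 1 was left out, 0.114 and 0.0927 for untreated replicate 2, 0.0674 and 0.0686 for 4OHT 8h replicate 1, and 0.145 and 0.166 for 4OHT 8h replicate 2. Nr5a2 was lost without untreated replicate 1 (0.175) or 2 (0.0959), 4OHT 8h replicate 1 (0.156) or 2 (0.153), or either 4OHT 10h array (0.0597). The number of factors called was 3 when either untreated replicate 1 or 4OHT 8h replicate 2 was left out, and 5 when either untreated replicate 2 or 4OHT 8h replicate 1 was. With arrays centred on their medians, which raised the median change of all genes by 0.14, Tcl1 and Tfcp2l1 were not called (0.0636 and 0.06). Without the filter on dim probes Tcl1, Tfcp2l1, Nr0b1 and Nr5a2 were not called (0.0956, 0.108, 0.0719 and 0.138). Nr0b1 and Nr5a2 were not called in a fit of only the 2 groups (0.0781 and 0.0525), nor Nr5a2 with quantile normalization (0.0702).

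Setting 4OHT 10h against the same controls asked how the set stood 2 h later. The 8 factors called at 8 h were called again in the same directions, and Esrrb fell as well. Of the 10 factors 9 were called, 6 lower and 3 higher, where 27.9% of all genes were. Their median change was -1.13, beside -0.05 over all genes, and the groups did not overlap for any of the 10 factors (68.7% of all genes). Both comparisons use the same untreated arrays.

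Nanog was at 1.93 and 1.48 at 10 h, 3.10 ± 0.19 lower than in untreated cells by the fit, or 8.58-fold (adjusted p = 0.000427). Prdm14 was at 0.32 and -0.34, a fall of 3.08 ± 0.29 or 8.48-fold (0.00162). These 2 factors had the largest falls of the set. Tbx3 was at 3.50 and 2.99 and fell by 1.98 ± 0.24 or 3.95-fold (0.00352). Tfcp2l1 was at 4.18 and 3.45, a fall of 1.64 ± 0.37 or 3.13-fold (0.0242), and Tcl1 at 3.88 and 3.34, a fall of 1.42 ± 0.24 or 2.68-fold (0.00978). Esrrb was at 6.48 and 5.87 and fell by 0.84 ± 0.23 or 1.79-fold (0.0414), by 0.54 in replicate 1 and 1.14 in replicate 2. Every treated array of these 6 factors was lower than both of its controls.

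Gbx2 was at 4.39 and 4.00 at 10 h and rose by 2.71 ± 0.16 or 6.55-fold (adjusted p = 0.000414). Nr0b1 was at 6.01 and 6.06, a rise of 0.92 ± 0.14 or 1.89-fold (0.00702), and Nr5a2 at 5.05 and 4.83, a rise of 0.55 ± 0.14 or 1.46-fold (0.0347). All treated arrays of the 3 genes were above their controls. Zfp42 was at 6.95 and 6.70. Its change of -0.26 ± 0.14 (95% interval -0.60 to 0.09, adjusted p = 0.221) was again not called, and its replicates differed, with -0.05 in replicate 1 and -0.46 in replicate 2.

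At 10 h the calls of Nanog, Prdm14, Tbx3, Nr0b1 and Gbx2 held in all 18 alternatives. Esrrb lost its call without untreated replicate 1 (adjusted p = 0.138) or 2 (0.129), 4OHT 10h replicate 2 (0.129, with a change of -0.54), either 4OHT 8h array (0.0616) or either MEK-inhibited array (0.0565), and with arrays centred on their medians (0.106). Tfcp2l1 lost its call without untreated replicate 1 (0.111) or 2 (0.0645) or 4OHT 10h replicate 2 (0.105), and Tcl1 without untreated replicate 1 (0.051). Nr5a2 lost its call without untreated replicate 1 (0.142) or 2 (0.0751), 4OHT 10h replicate 1 (0.141) or 2 (0.0644), or either 4OHT 8h array (0.0624), and with quantile normalization (0.0632). The count of factors called was 5 without untreated replicate 1. Centring on the median raised the median change of all genes by 0.19 here. Without the filter on dim probes Esrrb, Tfcp2l1 and Nr5a2 were not called (0.113, 0.0715 and 0.106). In a fit of only the 2 groups Esrrb and Nr5a2 were not called (0.0892 and 0.0652).

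From 8 h to 10 h of 4OHT no factor was called, and 0 of all genes were (0%). At an unadjusted p under 0.05 there were 1501 genes, and among the 10 factors only Nanog, which changed by -0.51 ± 0.19 (95% interval -0.97 to -0.04, adjusted p = 0.741). The next changes of the set were Tbx3 with -0.43 ± 0.24 (adjusted p = 0.819) and Tcl1 with -0.38 ± 0.24 (0.836). The arrays of the 2 times did not overlap for Nanog and Nr0b1 (38.8% of all genes), and the median change of the 10 factors was -0.20, against 0 over all genes. Gbx2 changed by 0.03 ± 0.16, with an interval of -0.37 to 0.43.

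The comparison of MEK-inhibited cells with 4OHT 10h asked, at a matched total time, which of these levels moved within 2 h of PD0325901. Nanog, Prdm14 and Tbx3 rose, and Gbx2 fell. These 4 of 10 factors were called, where 6.12% of all genes were (2821 of 22693 genes with the replicate block, in place of 1389). The 3 rises were in genes that had fallen with 4OHT and the fall in one that had risen, and both comparisons share the 4OHT 10h arrays. The median change of the 10 factors was 0.13, beside -0.04 over all genes. The groups did not overlap for 7 factors, compared with 52.2% of all genes.

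Prdm14 was at 0.32 and -0.34 at 10 h of 4OHT and at 2.35 and 1.88 in MEK-inhibited cells. Both inhibited arrays lay well above both others, a rise of 2.13 ± 0.29 or 4.38-fold (adjusted p = 0.0167). Nanog was at 1.93 and 1.48, then at 3.54 and 3.19. It rose by 1.66 ± 0.19 or 3.16-fold (adjusted p = 0.00996), by 1.61 in replicate 1 and 1.71 in replicate 2. Tbx3 was at 3.50 and 2.99, then at 4.85 and 4.43. Its rise of 1.39 ± 0.24 was 2.63-fold (adjusted p = 0.0325).

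Gbx2 was at 4.39 and 4.00 at 10 h and at -0.16 and -0.18 in MEK-inhibited cells, where it lay under the array's upper quartile on both arrays. The fall of 4.37 ± 0.16, or 20.6-fold, was the largest change of any of the 10 factors in any of the 6 comparisons (adjusted p = 0.000544). Nr0b1 changed by -0.56 ± 0.14 (adjusted p = 0.0841), from 6.01 and 6.06 to 5.40 and 5.54, and Nr5a2 by -0.50 ± 0.14 (0.113), from 5.05 and 4.83 to 4.60 and 4.29. In both genes each inhibited array was under each 4OHT array. With the replicate block Nr0b1 was called (0.0227) and Nr5a2 was not.

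Tfcp2l1 was at 4.18 and 3.45 at 10 h and at 4.90 and 4.19 in MEK-inhibited cells. The change was 0.71 in replicate 1 and 0.74 in replicate 2, while the replicates themselves lay 0.73 and 0.70 apart. It was not called without the replicate block (0.73 ± 0.37, adjusted p = 0.332) and was called with it (0.0189). Tcl1 was at 3.88 and 3.34, then at 3.89 and 3.42. Its difference of 0.05 ± 0.24 had a 95% interval of -0.55 to 0.64 (adjusted p = 0.939), so a change of up to that size in either direction remained possible. Esrrb differed by 0.21 ± 0.23 (interval -0.35 to 0.76, adjusted p = 0.657) and Zfp42 by -0.15 ± 0.14 (interval -0.49 to 0.20, adjusted p = 0.608), with overlapping arrays in both genes.

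**Figure D2:**
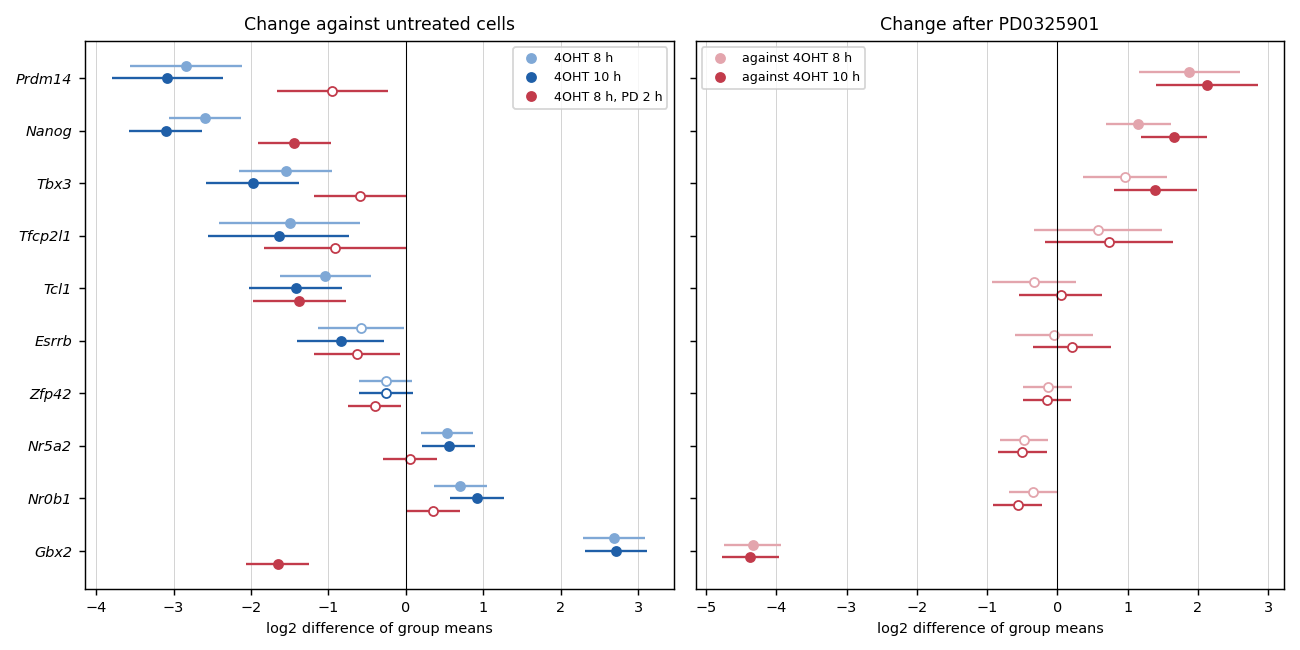
Log2 differences of group means (x axis) for the 10 factors (y axis), with 95% intervals of the limma fit as lines; filled points are called. On the left each treated group is set against untreated cells, where the 4OHT changes run from -3.10 (Nanog, 10 h) to 2.71 (Gbx2, 10 h). On the right MEK-inhibited cells are set against each 4OHT group, where Gbx2 lies at -4.37 and -4.34 and Prdm14 at 2.13 and 1.88.

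In the comparison of MEK-inhibited cells with 4OHT 10h, Tbx3 was not called without the filter on dim probes (adjusted p = 0.117). It was not called in a fit of only the 2 groups either (0.116). Only Gbx2 kept its call in all 18 alternatives of this comparison. Nanog lost it without MEK-inhibited replicate 1 (adjusted p = 0.057) and in a fit of only the 2 groups (0.075). Prdm14 lost it without MEK-inhibited replicate 1 (0.0897) or 2 (0.0582) or 4OHT 10h replicate 2 (0.0731), without the filter on dim probes (0.0675) and in a fit of the 2 groups (0.0833). Tbx3 lost it without MEK-inhibited replicate 1 (0.136) or 2 (0.0784), 4OHT 10h replicate 1 (0.0552) or 2 (0.137), or either untreated array (0.0691), and with arrays centred on the median (0.0524). The number of factors called was 1 without MEK-inhibited replicate 1, and 2 without MEK-inhibited replicate 2 or without 4OHT 10h replicate 2.

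Set against the cells at the start of inhibition, those of 4OHT 8h, Nanog and Prdm14 rose and Gbx2 fell, 3 of 10 factors where 6.52% of all genes were called. Nanog rose from 2.31 and 2.12 to 3.54 and 3.19, by 1.15 ± 0.19 or 2.23-fold (adjusted p = 0.0255), and Prdm14 from 0.49 and -0.02 to 2.35 and 1.88, by 1.88 ± 0.29 or 3.69-fold (0.0223). Levels of both were thus higher than 2 h earlier. Neither rise was called without the filter on dim probes (0.0972 and 0.0848) or in a fit of only the 2 groups (0.0785 and 0.0768). Gbx2 fell by 4.34 ± 0.16 or 20.2-fold (0.00056). Tbx3 changed by 0.96 ± 0.24 (0.0826) and Tfcp2l1 by 0.58 ± 0.37 (0.424). With the replicate block both were called (0.00954 and 0.0301), which made 5 factors, where 3184 of 22692 genes were called. The median change was -0.10 over the 10 factors and -0.04 over all genes, and the groups did not overlap for 6 factors (52.6% of all genes). Nanog was not called without untreated replicate 1 or 2 (0.0589), 4OHT 8h replicate 1 (0.0851) or 2 (0.13), or MEK-inhibited replicate 1 (0.113) or 2 (0.0662). Prdm14 was not called without the same arrays, at 0.0524, 0.0572, 0.106, 0.106 and 0.0686 in that order. Gbx2 was thus the 1 factor called when any 1 of these 6 arrays was left out.

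The comparison of MEK-inhibited with untreated cells asked how far the factors stood from their untreated levels after inhibition. Nanog, Tcl1 and Gbx2 were lower than in untreated cells, 3 of 10 factors where 15.8% of all genes were called. No factor was called higher. Their median change was -0.78, that of all genes -0.07, and the groups did not overlap for 9 of the 10 factors (60.3% of all genes). With the replicate block 8 factors were called, 7 lower and 1 higher, where 6283 of 22692 genes were called.

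Nanog, at 3.54 and 3.19 against 4.78 and 4.83, was lower by the fit at -1.44 ± 0.19, a 2.71-fold difference (adjusted p = 0.00873). Tcl1, at 3.89 and 3.42 against 5.03 on both untreated arrays, fell by 1.38 ± 0.24 or 2.59-fold (0.0188). Gbx2, at -0.16 and -0.18 against 1.54 and 1.42, fell by 1.65 ± 0.16 or 3.15-fold (0.00404), so after 8 h of 4OHT and 2 h of inhibitor it was under the level it had without 4OHT. Prdm14 differed by -0.95 ± 0.29 (0.082, block 0.00914), Tbx3 by -0.59 ± 0.24 (0.155, block 0.0188) and Tfcp2l1 by -0.92 ± 0.37 (0.15, block 0.00603). Esrrb differed by -0.63 ± 0.23 (0.116, block 0.038) and Nr0b1 by 0.35 ± 0.14 (0.145, block 0.0425). The groups of these 5 factors did not overlap, and each was called once the replicate number was fitted. Prdm14 was also called with normexp background correction (0.039) and with an intensity trend (0.0403). Zfp42 differed by -0.40 ± 0.14 (0.109) and Nr5a2 by 0.05 ± 0.14 (0.82, interval -0.29 to 0.40), without a call in either fit. Without the filter on dim probes the fall of Tcl1 was not called (0.0694). Nanog was not called without untreated replicate 2 (0.0506). Tcl1 was not called without untreated replicate 1 (0.08) or 2 (0.0826) or MEK-inhibited replicate 2 (0.0827). The count was 1 without untreated replicate 2.

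As a description, the part of the 10 h change that was no longer present after inhibition was 70.3% for Tbx3 (75.2% and 66.2% in replicates 1 and 2), 69.1% for Prdm14 (71.8% and 66.7%) and 53.6% for Nanog (56.4% and 51.1%). It was 61.6% for Nr0b1, 44.3% for Tfcp2l1, 24.5% for Esrrb and 3.2% for Tcl1. For Nr5a2 it was 90.3%, with 61% and 151.3% in the replicates, and for Zfp42, whose 10 h change was not called, -56.8%. These 2 genes had the smallest 10 h changes of the set. For Gbx2 it was 161%, since the level fell past that of untreated cells. These shares use the same arrays in both terms and carry no test.

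Ordered by group mean, Nanog, Tbx3, Tfcp2l1 and Prdm14 ran from 4OHT 10h as the lowest through 4OHT 8h and MEK-inhibited to untreated as the highest. Whether neighbours differed was read from the fit without the replicate block. The neighbours 4OHT 10h and 4OHT 8h were not told apart in any of the 4. Nanog differed between each of the other neighbours, and Prdm14 between 4OHT 8h and MEK-inhibited cells. Esrrb and Tcl1 ran in another order, from 4OHT 10h through MEK-inhibited and 4OHT 8h to untreated, and of their neighbours only 4OHT 8h and untreated differed, for Tcl1. Nr0b1 and Nr5a2 ran from untreated through MEK-inhibited and 4OHT 8h to 4OHT 10h, with no neighbours told apart. Gbx2 ran from MEK-inhibited through untreated and 4OHT 8h to 4OHT 10h, and all neighbours but the last pair differed. Zfp42 ran from MEK-inhibited (6.68) through 4OHT 8h (6.82) and 10h (6.83) to untreated (7.09), with none told apart. Fitting the replicate block told more neighbours apart. These were untreated and MEK-inhibited cells for Prdm14, Tbx3, Tfcp2l1 and Nr0b1, 4OHT 8h and MEK-inhibited cells for Tbx3 and Tfcp2l1, and untreated and 4OHT 8h for Esrrb.

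The probes of the set bear on these values. Nanog has 2 probes, and only the brighter showed the changes. The dimmer Nanog probe, with signals of 87.62 to 154.3 that were well above background on all 8 arrays, changed by -0.36 at 8 h, -0.14 at 10 h and -0.08 with MEK inhibition against 10 h. Averaged over both probes Nanog changed by -1.48 at 8 h and -1.62 at 10 h, and rose by 0.79 with inhibition against 10 h. Against 4OHT 8h the average differed by 0.64 and was not called (adjusted p = 0.0651). The 2 probes of Tfcp2l1 ran together. The second changed by -1.51, -1.62 and 0.69 in the 3 comparisons, beside -1.50, -1.64 and 0.73 for the one used. The second Nr5a2 probe changed by 0.49, 0.39 and -0.61, beside 0.53, 0.55 and -0.50. Nr0b1 has 1 probe printed 10 times, whose spots differed within an array by an SD of 0.027 to 0.069 after 6 outlier spots were left out. The other 6 factors have 1 probe on 1 spot, so nothing on the array repeats their values.

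**Figure D3:**
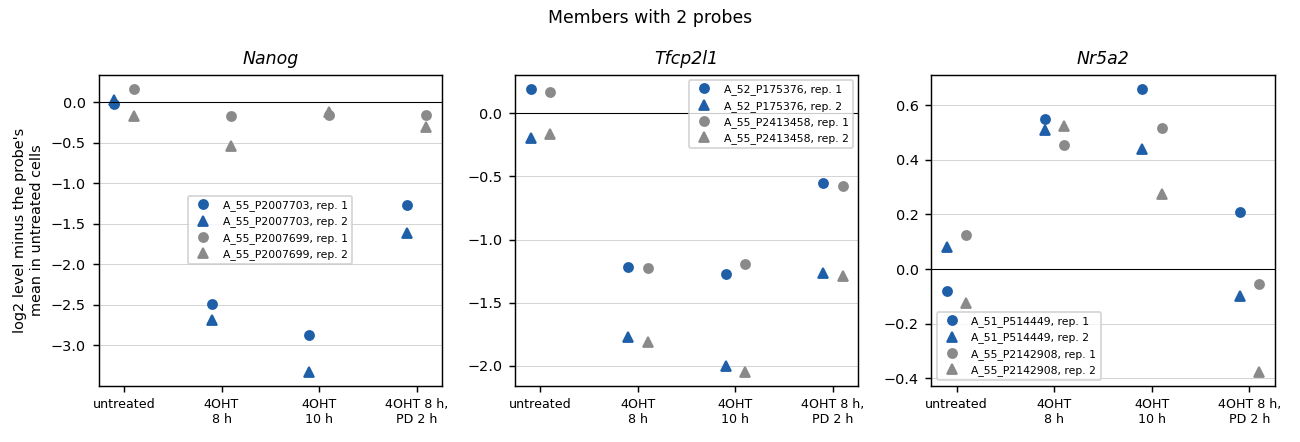
Log2 level of each probe minus its own mean in untreated cells (y axis) in the 4 groups (x axis) for the 3 factors with 2 probes, circles for replicate 1 and triangles for replicate 2. The probes of Tfcp2l1 and Nr5a2 run together, while the dimmer Nanog probe stays near 0 where the brighter falls by 3.10 at 10 h.

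The replicates differed in the same way across several factors. Esrrb, Tbx3, Tfcp2l1, Prdm14, Tcl1 and Gbx2 were higher on the replicate 1 array in 4 of 4 groups (equal to 2 decimals for Tcl1 in untreated cells), by means of 0.30, 0.37, 0.60, 0.45, 0.33 and 0.21. Nr0b1 was lower on the replicate 1 array in all 4 groups, by a mean of 0.18. The same numbers separate the primitive endoderm markers and the count of spots above background given earlier. Whether those differences have a part in the levels of the factors was not tested. Within each replicate number, all 8 factors called at 8 h and all 9 called at 10 h changed in the direction of the fit.

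The other genes of the network were read from lists written for this purpose. Among 20 further naive genes, 3 rose and 7 fell at 8 h (50%, where 21.7% of all genes were called). At 10 h 3 rose and 8 fell (55%, where 27.9% were), and 4 rose and 4 fell with MEK inhibition against 10 h (40%, where 6.12% were). Their median change was -0.30 at 10 h. Of these calls, 7 were left at 10 h when either untreated array was left out. With inhibition 2 were left when 4OHT 10h replicate 2 or MEK-inhibited replicate 1 or 2 was left out, 3 when 4OHT 10h replicate 1 was and 4 when either 4OHT 8h array was. Klf2 and Klf4, Krüppel-like factors of the naive state, fell at 10 h by 1.17 ± 0.23 (adjusted p = 0.0167) and 1.79 ± 0.32 (0.0121), whereas Klf5 rose by 1.13 ± 0.14 (0.00336). With MEK inhibition Klf2 rose by 1.45 ± 0.23 (0.0265) and Klf5 fell by 0.89 ± 0.14 (0.0221). Klf4 changed by 1.47 ± 0.32 (0.0614), called with the replicate block (0.00966). The inhibition call of Klf2 was lost without any 1 array but 4OHT 10h replicate 1 (0.0522 to 0.127), and that of Klf5 without either 4OHT 10h or either MEK-inhibited array (0.0779 to 0.107). At 10 h the calls of Klf2 and Klf4 were lost without untreated replicate 1 (0.0653 and 0.0637) or 2 (0.0767 and 0.0519).

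Spic, an ETS-family gene of the naive state, was at 1.66 and 1.48 in untreated cells and at -2.85 and -3.47 at 10 h of 4OHT. It stood at 1.17 and 0.71 in MEK-inhibited cells. The fall of 4.73 ± 0.28 (adjusted p = 0.000414) and the rise of 4.10 ± 0.28 (0.00234) were each larger than any fall at 10 h and any rise with inhibition among the 10 factors. Fgf4, the autocrine FGF ligand of ES cells, fell by 1.56 ± 0.10 at 10 h and rose by 1.32 ± 0.10 with inhibition (0.00055 and 0.00339). Spp1, which encodes the secreted protein osteopontin, fell by 1.61 ± 0.07 (0.000201) and Jam2, a junction protein gene, by 1.58 ± 0.08 (0.000317), while the lysosomal enzyme gene Manba rose by 1.70 ± 0.09 (0.000282).

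Of 12 core and general pluripotency genes, 6 rose and 0 fell at 10 h (50%, where 27.9% of all genes were called), and 0 rose and 6 fell with MEK inhibition against 10 h (50%, where 6.12% were), with median changes of 0.32 and -0.40. Of the 6 falls 2 were left when 4OHT 10h replicate 2 or MEK-inhibited replicate 1 or 2 was left out, and 3 when 4OHT 10h replicate 1 or either 4OHT 8h array was. Centred on the median, 10 of the 12 genes were called at 10 h, where 6713 of 22692 genes were. Pou5f1 (OCT4) changed by 0.22 ± 0.10 at 10 h (adjusted p = 0.17) and Sox2 by 0.24 ± 0.08 (0.0875). Both were called higher with arrays centred on the median (0.0412 and 0.0265). Sox2 fell by 0.83 ± 0.08 with MEK inhibition (0.00697). Jarid2, a Polycomb cofactor, rose by 1.12 ± 0.07 at 10 h (0.000479), the chromatin-associated factor gene Utf1 by 1.00 ± 0.08 (0.000892) and Dppa4 by 0.95 ± 0.08 (0.001). The members of this list that changed did not go the way of Nanog, Tbx3 and Prdm14 in either comparison.

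Of 14 genes that act in exit from the naive state or repress it, 7 rose and 1 fell at 10 h (57.1%, where 27.9% of all genes were called), and 0 rose and 4 fell with MEK inhibition (28.6%, where 6.12% were). The calls at 10 h numbered 5 when 4OHT 10h replicate 2 was left out. The gene that fell at 10 h was Tcf7l1, a repressor of Nanog and Esrrb, by 1.51 ± 0.11 (adjusted p = 0.000772). Pou3f1 (OCT6), a POU factor of the postimplantation epiblast, was at 0.46 and 0.78 in untreated cells, at 3.91 and 4.21 at 10 h and at 2.19 and 2.48 with inhibition. It rose by 3.44 ± 0.19 (0.000327) and then fell by 1.73 ± 0.19 (0.00874). That fall was not called without 4OHT 10h replicate 2 (0.0542) or MEK-inhibited replicate 1 (0.0559). Otx2, a homeobox factor of the same stage, rose by 1.08 ± 0.18 (0.00888, or 0.0501 and 0.051 when untreated replicate 1 or 4OHT 10h replicate 2 was left out) and then fell by 2.34 ± 0.18 (0.00303). Foxd3, a forkhead factor, rose by 0.68 ± 0.11 (0.00777) and fell by 2.01 ± 0.11 (0.0014). With inhibition the levels of Otx2 and Foxd3 fell past those of untreated cells, with differences of -1.26 ± 0.18 (0.0104) and -1.33 ± 0.11 (0.00243), as Gbx2 did. That of Otx2 was not called when untreated replicate 2 (0.0567) or MEK-inhibited replicate 1 (0.0523) was left out. Etv4, an ETS factor, rose by 1.91 ± 0.08 and Sox4 by 1.49 ± 0.14 at 10 h (0.000195 and 0.00165). The sum over 7 primed epiblast markers, of which Otx2, Pou3f1, Dnmt3b and Fgf5 are also in this list, was 40.6 to 55.7 in untreated cells, 100 to 110 at 10 h and 59.8 to 66.1 with inhibition, with Cer1 not above background on any array. Dnmt3b, the brightest of these markers (5.12 in untreated cells), weighs most in that sum.

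**Figure D4:**
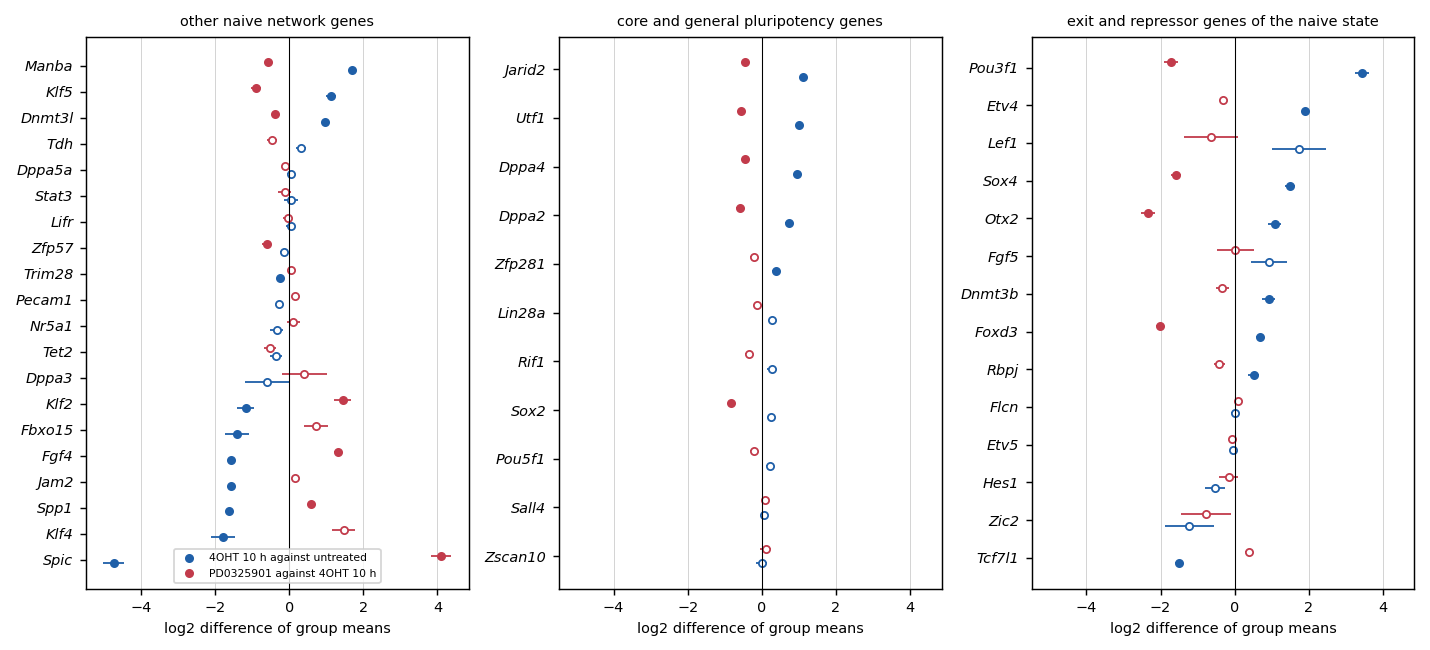
Log2 differences of group means (x axis) for the genes of 3 lists (y axis), at 4OHT 10h against untreated cells and in MEK-inhibited cells against 4OHT 10h; lines are ± the standard error and filled points are called. Spic shows the widest swing of the naive list (-4.73 and 4.10), and the called core genes that are drawn lie higher at 10 h and lower after inhibition.

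The genes whose levels over the 8 arrays ran most like each factor were taken from 1702 candidates that had a symbol, were well above background on all arrays and had group means spanning at least 1 log2 unit. The correlations are a description over 8 arrays that share the 4 treatments, the slide and the replicate differences described earlier, and they carry no p. The levels of Nanog ran most like those of Vax2os (r = 0.998), an antisense RNA gene, and Cdk19 (0.996), a Mediator kinase gene. Prdm14 ran most like Smtnl2 (0.996) and the STAT factor gene Stat2 (0.996), and Tob1 (0.991), an antiproliferative gene, was among the genes nearest to Tbx3. Gbx2 ran most like Noct (0.999), a circadian phosphatase gene, and Zfp36l1 (0.996), which encodes an mRNA decay factor. Noct rose by 2.19 ± 0.10 at 10 h and fell by 3.47 ± 0.10 with inhibition (adjusted p = 0.000225 and 0.00028).

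For Tcl1, whose level did not move detectably with inhibition, the nearest genes were Dmgdh (r = 0.991) and Smarcd3 (0.983), and for Tfcp2l1 Whamm (0.992) and Mitf (0.991). Nr5a2 was nearest to Axin2 (0.98), a feedback gene of WNT signalling, and D16Ertd472e (0.966), and Nr0b1 to Wdr47 (0.984) and Plk3 (0.983). Esrrb was nearest to Kcp (0.978) and Glb1l2 (0.976), and Zfp42, with the smallest correlations, to Zcchc24 (0.895) and Glb1l2 (0.888). Within the set, Prdm14 and Tbx3 were nearest to each other (0.99), Nanog to Prdm14 (0.978), and Esrrb and Tcl1 to each other (0.957). Tfcp2l1 was nearest to Tbx3 (0.947), Zfp42 to Tcl1 (0.872), Gbx2 and Nr5a2 to each other (0.863), and Nr0b1 to Nr5a2 (0.825).

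**Figure D5:**
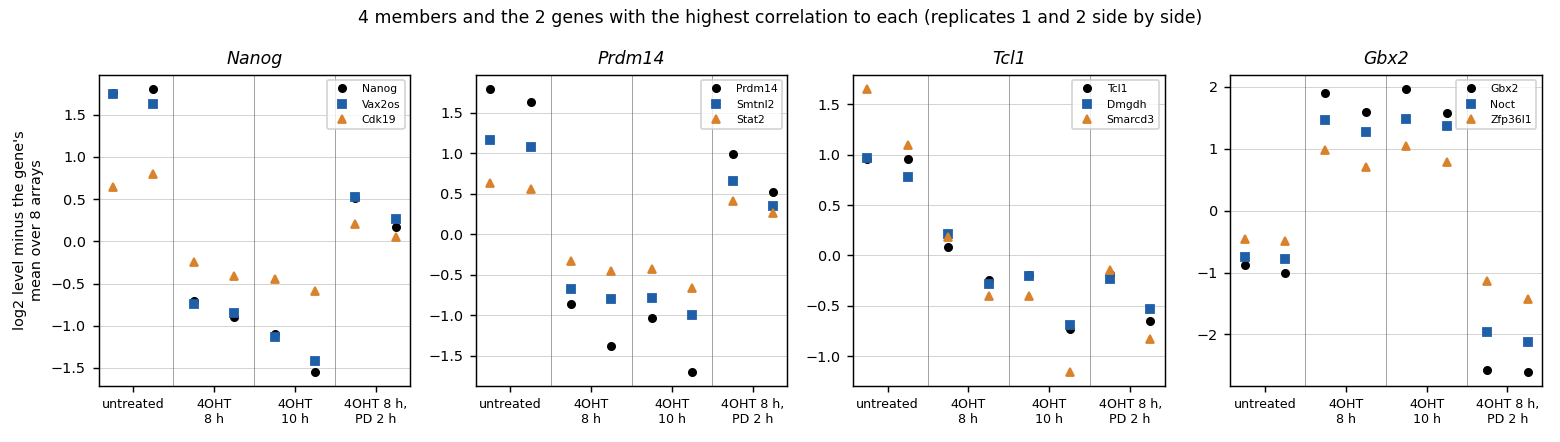
Log2 level minus the gene's own mean over the 8 arrays (y axis) for 4 factors, each with the 2 genes most correlated with it, by group and replicate (x axis, replicate 1 left of replicate 2). In each panel the 3 genes rise and fall together over the groups while their spans differ, as in the fall with inhibition of Gbx2 (4.37), Noct (3.47) and Zfp36l1 (2.19).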

How the data were processed

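Agilent arrays of design 028005 received label made from 100 ng of total RNA, per the labels' protocols. The processed signal, a background-subtracted intensity not scaled between arrays, is the output of Feature Extraction 11.0.1.1, per the file headers. The deposited files also give raw and background intensity and marks of 0 or 1, used here as other values, for spots well above background or outliers. The series' value table, as deposited, repeats the processed intensity, linear and uncentred (column medians 21.6 to 29.9).

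Each array's log2 intensity was set relative to its 75th percentile, taken over the spots that are no controls. Files were read in Python 3.11.15 (pandas 2.3.3, numpy 2.4.6), fitted with limma 3.58.1 under R 4.3.3 (data.table, version 1.17.8) and drawn with matplotlib 3.10.9. Outlier spots (169 to 249 per array) were left out and spots of a probe averaged. Kept were the 30336 probes well above background in both replicates of some group, and a gene was read from its kept probe with the highest mean (22693 genes). Of these genes 14498 had a symbol, and the rest go by the file's name. Symbols came from RefSeq accessions (GRCm38.p6) for 27656 of 55681 probes, 49.7%; 0 matched several and 28025 kept the file's name. The files' design is on another build, so no coordinates are given except those of the promoter table. The fit gave every group its own mean over the 8 arrays, with 4 residual and 1.71 prior degrees of freedom and a residual SD whose median was 0.129, and yielded two-sided p-values, adjusted over all genes, with no fold minimum. The steps were tested on simulated data.

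The set and the lists (further naive, core, exit and repressor genes, paralogs, signalling inputs and cell type markers) were chosen with earlier results of these data known. Named were all 10 factors, up to 4 called genes per list with the smallest adjusted p at 10 h, and always Klf2, Klf4, Klf5, Pou5f1, Sox2, Dusp6 and Egr1. Fgf4, Otx2, Foxd3 and Il6st were named after their values were seen. Pattern likeness took the 2 genes with the highest correlation per factor. A gene of the core list and a gene near Tbx3 are not reported here by name or drawn, and list counts include the former.

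Replicate numbers come from the labels and pair the arrays: deviations from the group means correlated at 0.29 to 0.36 between same-numbered arrays in all 6 pairs of groups. The main fit leaves this pairing out, so its standard errors, intervals and calls are those of unpaired groups. The fit with the replicate block uses it. On the slide each number fills a row. Columns go with the groups and cannot be told apart from them. The labels name Cy5 while the single channel in the files carries the name for green, on which no direction depends. The alternatives were the replicate block, median centring, quantile normalization, normexp background correction (offset 50), the value table, no filter and a stricter filter, an intensity trend with robust prior, the mean over probes, only the groups compared, and leaving out each array.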

Additional observations from a re-analysis of the deposited data

How the results depend on the processing

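None of the 10 factors changed direction past the threshold under the 18 alternatives. Of 1080 values 975 kept their side of the threshold, 16 gained a call and 89 lost one. The 975 include values without a call in either fit whose sign changed. The change of Esrrb with inhibition against 10 h, for example, ran from -0.1 to 0.51. Without the filter on dim probes, which adds genes to the adjustment, the factors called numbered 4 at 8 h, 2 with MEK inhibition against 10 h and 1 against 8 h, in place of 8, 4 and 3. In fits of only the 2 groups compared, which leave fewer arrays, they numbered 1 in each inhibition comparison with a 4OHT group. With the replicate block they numbered 5 with inhibition against 8 h and 8 against untreated cells, in place of 3 and 3, and the block changed no other call of the 10 factors than those given beside them. Leaving out 1 array, with the lone array assumed to vary like the others, gave 3 to 8 factors at 8 h, 5 to 8 at 10 h, 1 to 4, 1 to 3 and 1 to 3 with inhibition against 10 h, 8 h and untreated cells, and 0 to 0 between 8 h and 10 h. All genes called, 4932, 6332, 1389, 1479 and 3594 in the order of those first 5 comparisons, became 2303, 3306, 333, 358 and 1069 without the filter and 2767, 3980, 328, 328 and 1413 in fits of 2 groups. With the block the last 3 became 2821, 3184 and 6283. Leaving out 1 array gave 2269 to 4269, 3170 to 5866, 371 to 959, 391 to 1063 and 1192 to 2649, and 0 to 4 between 8 h and 10 h. Centred on the median, 3038 rose and 1512 fell at 8 h (2329 and 2603 otherwise), 4861 and 1852 at 10 h (2978 and 3354), 490 and 682 with inhibition against 10 h (737 and 652) and 1871 and 915 against untreated cells (1600 and 1994). For losses not explained here the cause was not tested. All 10 factors were well above background on all 8 arrays; the precision is limited by the number of arrays.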

Other observations

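Of 18 paralogs of the factors, 13 were tested and Esrrg, Tbx2, Nr0b2, Tcl1b1 and Tcl1b3 had probes too dim to test. At 10 h of 4OHT, 2 paralogs rose and 1 fell (23.1%, where 27.9% of all genes were called), and with MEK inhibition against 10 h 1 rose and 0 fell (7.69%, where 6.12% were; 2 called without 4OHT 10h replicate 1). Gbx1, the paralog of Gbx2, was at -4.67 and -4.75 in untreated cells, well above background on 1 of 2 arrays, and at -2.89 and -3.30 at 10 h. It rose by 1.62 ± 0.21 (limma, adjusted p = 0.00428), the direction of Gbx2. With inhibition Gbx1 changed by -0.43 ± 0.21 (0.315), and it was still higher than in untreated cells by 1.18 ± 0.21 (0.0196; not called when untreated replicate 1 (0.0765) or 2 (0.0902) or MEK-inhibited replicate 1 (0.062) was left out), where Gbx2 was lower by the fit at -1.65. Whether the responses of Gbx1 and Gbx2 differ was not tested. Tfcp2, the paralog of Tfcp2l1, fell by 0.91 ± 0.17 at 10 h (0.0133), and lost its call without untreated replicate 1 (0.0594) or 2 (0.063) or 4OHT 10h replicate 2 (0.0731). Yy2, related to Zfp42, rose by 0.43 ± 0.07 (0.00834), and was not called without 4OHT 10h replicate 1 (0.0515).

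Of 11 genes of the LIF, AKT and WNT inputs to the network, 1 rose and 2 fell at 10 h (27.3%, close to the 27.9% of all genes called). With the replicate block 5 were called at 10 h, where 8859 of 22692 genes were. With MEK inhibition 2 rose and 1 fell (27.3%, where 6.12% of all genes were called). The count at 10 h was 1 when untreated replicate 1 or 4OHT 10h replicate 2 was left out. With inhibition it was 0 or 1 when any 1 array was left out. Socs3, a STAT3 target that dampens LIF signalling, was at 5.29 and 5.26 in untreated cells, 4.82 and 4.60 at 10 h and 5.47 and 5.41 with inhibition. It fell by 0.57 ± 0.10 (limma, adjusted p = 0.0122) and then rose by 0.73 ± 0.10 (0.0178). The fall was not called centred on the array median (0.0951), or without untreated replicate 1 (0.0596) or 2 (0.0504) or 4OHT 10h replicate 2 (0.0603), and the rise was not called centred on the median (0.0602) or without 4OHT 10h replicate 2 (0.0864) or MEK-inhibited replicate 1 (0.0969) or 2 (0.0818). Il6st (gp130), the signalling receptor of LIF, rose with inhibition by 0.63 ± 0.13 (0.0492), a call lost without any 1 of the 8 arrays (0.0668 to 0.226). Akt2, which encodes a kinase that TCL1 activates, rose by 0.46 ± 0.08 at 10 h (0.0103), and was not called without untreated replicate 1 (0.0513) or 4OHT 10h replicate 2 (0.066).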
